A study of Mus musculus with 9 samples.

Results

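Transforming growth factor beta (TGF-beta) genes were followed in stromal cells with a conditional deletion of Grem1, which encodes a secreted BMP antagonist. The 10 genes were chosen by symbol: the ligand genes Tgfb1, Tgfb2 and Tgfb3, the receptor genes Tgfbr1, Tgfbr2 and Tgfbr3, the latency protein genes Ltbp1, Ltbp2 and Ltbp3, and the feedback target gene Pmepa1. All 10 were found among the 27179 Entrez genes of the deposited matrix, and all 10 were among the 15832 genes abundant enough to be tested. The cells were sorted from the fibrous tissue that formed around a tibial implant in mice, 2 weeks after surgery, as cells negative for lineage markers (Lin-) and positive for the red fluorescent protein tdTomato. In all animals tdTomato marked cells in which Lepr-CreERT, a Cre recombinase driven by the leptin receptor gene and switched on by tamoxifen, had been active. The conditional knockout (cKO) group of 5 libraries was Lepr-CreERT;Tdtomato;Grem1fl/fl, so that both Grem1 alleles could be deleted in cells that expressed the Cre. The control group of 4 libraries was Lepr-CreERT;Tdtomato and carried the same Cre and reporter. The controls were littermates. The labels give no ages and do not say that each library came from its own animal, so the p-values refer to variation among libraries, which may be technical.

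TGF-beta ligands are secreted in a latent form, in which the mature cytokine stays bound to its own propeptide and, through it, to a latent TGF-beta binding protein in the matrix. Once released, a ligand dimer binds the type II receptor encoded by Tgfbr2, which then activates the type I receptor encoded by Tgfbr1, and the receptor complex phosphorylates SMAD2 and SMAD3. The co-receptor betaglycan, encoded by Tgfbr3, presents ligand to the type II receptor. Pmepa1 encodes a membrane protein induced by TGF-beta that holds SMAD2 and SMAD3 away from the receptor. In bone and in fibrous tissue the pathway is known for its part in matrix production and in the recruitment of skeletal progenitors.

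Recovered reads numbered 43.5 to 87.2 M per cKO library and 44.8 to 53.4 M per control library (M, 1e6 reads). cKO replicate 5, with 43.5 M, was the only cKO library under 60 M, so for the other cKO libraries depth and genotype cannot be told apart. Grem1 was lower in every cKO library (46.4 to 133 normalized counts) than in every control (356 to 736; limma adjusted p = 0.00781). The 10 listed stromal markers of the Lepr lineage, Lepr and Cxcl12 among them, were detected in every library, with Pdgfra called higher and the deleted Grem1 lower. They summed to 142677 to 186731 normalized counts in cKO replicates 1 to 4 and 83899 in cKO replicate 5, against 200638, 123156, 359163 and 93609 in control replicates 1 to 4. Several lists of marker genes of other cell types differed with genotype. The 12 skeletal muscle markers summed to 73172 to 678636 normalized counts in cKO libraries and 389.9 to 1807 in controls, with 12 of 12 higher. The 12 cartilage markers summed to 164984 to 1286095 in cKO libraries, the highest being replicate 5, and 2000990 to 4765129 in controls, with 7 of 12 lower. The 8 Schwann cell markers summed to 58649 to 135676 in cKO libraries and 22805 to 30494 in controls, with 6 of 8 higher. The 11 macrophage markers summed to 5740 to 18320 in cKO replicates 1, 3, 4 and 5, against 29763 to 65411 in controls, with 1 of 11 lower. In cKO replicate 2 they summed to 115663, of which Lyz2 was 100129. The 8 megakaryocyte and platelet markers summed to 351 to 1149 in cKO libraries and 709.5 to 1649.7 in controls, with none of 6 tested called and Gp6 at 0 in all. The 10 endothelial markers split the controls, at 145119 and 179173 in replicates 1 and 3 and 7370.4 and 11699 in replicates 2 and 4, against 5966 to 10439 in cKO libraries, and 2 of 10 were called lower. Those were Flt1 and Cldn5. Tek, by contrast, had a log2 fold change of 0.46 and gave 5191 of the 8321 in cKO replicate 3. In control replicates 2 and 4 Tek had only 320 and 609. The 8 pericyte and smooth muscle markers summed to 64731 to 98298 in cKO libraries and 70656 to 108331 in controls, with 1 of 8 higher and 2 lower. The higher one was Des, at 7816 to 47141.5 in cKO libraries and 2122 to 6315 in controls. Mcam and Cspg4 were the lower ones, so these overlapping sums hold changes in both directions. The sums overlap in part through Des. It gave 47141.5 of the 98298 in cKO replicate 4, against 6315 of the 108331 in control replicate 4. Both Des and the summed skeletal muscle markers were highest in cKO replicates 4 and 1. Myh11, not called, had 1624 to 7188.5 in cKO libraries and 7398 to 12086 in controls, while Kcnj8 had 2142 to 10444 and 1190 to 5289. Whether this marker RNA came from other cells or from the sorted lineage itself was not tested. Its part in the differences described here was not tested either. In bulk RNA fewer cells of a type and less RNA per cell cannot be told apart.

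Of the 10 genes, Pmepa1 was lower and Tgfbr3 higher in the cKO libraries, and the other 8 did not pass the test (limma on log2(normalized count + 1), Benjamini-Hochberg adjusted p under 0.05 over all genes tested). Of all genes tested, 7.48% passed, 4.61% as higher and 2.87% as lower. The 2 calls were unlike in their support. Pmepa1 passed whichever single library was left out, whereas Tgfbr3 passed narrowly and lost its call without any 1 library other than cKO replicate 5. Only Pmepa1 had groups that did not overlap, 1 of 10 genes, where this held for 11.4% of all genes tested. The median log2 fold change of the 10 genes was -0.1, and that of all genes tested was -0.004.

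**Figure D1:**
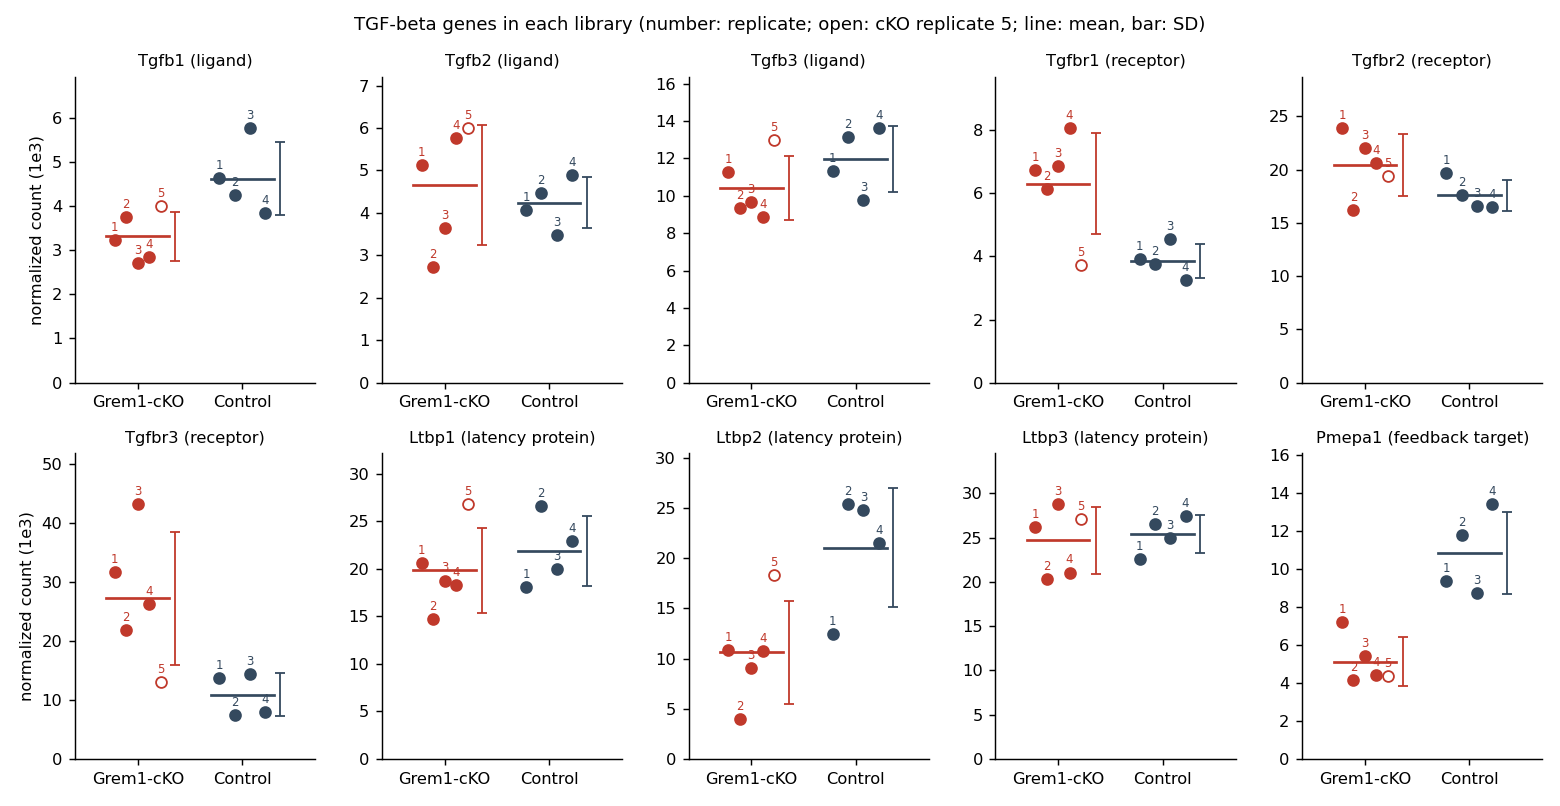
Normalized counts (in units of 1e3, linear axis from 0) of the 10 genes in each library, with 5 Grem1-cKO libraries on the left and 4 Control libraries on the right of each panel. Points are libraries numbered by replicate, the open point is cKO replicate 5, the line is the mean and the bar the SD; all cKO points of Pmepa1 lie below all control points, and 4 of 5 cKO points of Tgfbr3 and of Tgfbr1 lie above all control points.

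Promoter sequences give the start regions of members whose cKO replicates 1 to 4 all lay on one side of the controls. Entries in the RefSeq promoter table of GRCm38.p6 were matched for 7 of the 10 genes, with no entry for Tgfb3, Tgfbr3 and Pmepa1. Each runs from 250 bases before to 50 after an annotated start. They were searched on both strands for the SMAD-binding core CAGAC, for the AP-1 element TGANTCA and for the GC box GGGCGG. Of 32851 promoters of this length, 49.6% hold the first, 7.81% the second and 35.7% the third. Shown are Tgfb1 (chr7:25686752-25687051, plus strand), the upstream start of Tgfbr1 (chr4:47352972-47353271, plus strand) and Ltbp2 (chr12:84876442-84876741, minus strand), 5′ to 3′, with each SMAD-binding core in capitals (CAGAC, or GTCTG for the other strand):
Tgfb1: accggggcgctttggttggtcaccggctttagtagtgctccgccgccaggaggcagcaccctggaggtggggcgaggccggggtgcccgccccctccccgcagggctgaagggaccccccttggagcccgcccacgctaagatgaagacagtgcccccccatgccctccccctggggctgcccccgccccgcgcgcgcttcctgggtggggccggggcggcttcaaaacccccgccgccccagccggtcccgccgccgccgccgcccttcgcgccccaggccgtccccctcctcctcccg
Tgfbr1: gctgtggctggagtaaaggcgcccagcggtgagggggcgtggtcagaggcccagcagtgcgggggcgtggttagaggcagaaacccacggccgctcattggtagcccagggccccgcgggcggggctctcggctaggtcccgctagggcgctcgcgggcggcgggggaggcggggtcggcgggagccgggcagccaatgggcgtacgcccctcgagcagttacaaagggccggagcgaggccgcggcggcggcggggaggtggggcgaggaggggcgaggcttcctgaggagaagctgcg
Ltbp2: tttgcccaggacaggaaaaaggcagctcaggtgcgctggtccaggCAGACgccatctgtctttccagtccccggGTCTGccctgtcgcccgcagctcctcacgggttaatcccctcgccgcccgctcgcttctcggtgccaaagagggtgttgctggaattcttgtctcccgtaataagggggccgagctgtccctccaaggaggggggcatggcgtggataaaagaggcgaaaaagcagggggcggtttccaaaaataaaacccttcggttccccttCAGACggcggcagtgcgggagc
The window of Ltbp2 holds 3 such cores and 2 GC boxes. Those of Tgfb1 and Tgfbr1 hold none of the cores, with 6 and 2 GC boxes, and are 77% and 74.7% G or C. The table also holds a downstream start of Tgfbr1, not shown, with 1 core at position -203 and no GC box. None of the 3 windows holds the AP-1 element, and in them no GC box overlaps a core. With a core in 49.6% of all promoters, these matches only describe the letters.

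Pmepa1 (Entrez 65112), the feedback gene, had 7228, 4171, 5436, 4393 and 4373 normalized counts in cKO replicates 1 to 5. In control replicates 1 to 4 it had 9387, 11794, 8710.1 and 13395. Every cKO library lay below the lowest control. The means were 5120.3 ± 1278 in cKO libraries (SD, n = 5) and 10822 ± 2167 in controls (SD, n = 4). On the log2 scale the difference was -1.09 (SE 0.19), a 2.13-fold lower level in the knockout (limma adjusted p = 0.0129). cKO replicate 5, the only cKO library at the depth of the controls, was among the low ones: its log2 difference from the 4 controls was -1.29, with a 95% interval of -2.02 to -0.55 before adjustment and a limma adjusted p of 0.266 in a fit whose spread comes from the controls alone. Leaving out 1 library at a time gave log2 fold changes of -1.22 to -0.98 and limma adjusted p of 0.00784 to 0.0409. Without controls 1 and 3, the pair rich in endothelial markers, the log2 fold change was -1.33 (limma adjusted p = 0.0312).

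The receptor genes differed most in Tgfbr3 (Entrez 21814), which encodes betaglycan. It had 31750.5, 21946, 43199.7, 26209 and 13073 normalized counts in cKO replicates 1 to 5, against 13669, 7512, 14465 and 7908 in control replicates 1 to 4. Replicates 1 to 4 of the knockout stood above every control, and replicate 5 stood inside the control range. The mean was 27236 ± 11234 in cKO libraries (SD, n = 5) and 10888 ± 3688 in controls (SD, n = 4), and the level was 2.43-fold higher in the knockout (1.28 as a log2 fold change with SE 0.34; limma adjusted p = 0.0489). Without any 1 of the 4 controls or of cKO replicates 1 to 4 the limma adjusted p was 0.0663 to 0.119. Without cKO replicate 5 the log2 fold change was 1.52 (limma adjusted p = 0.00595), and for replicate 5 against the controls it was 0.33. Tgfbr3 was higher in controls 1 and 3 than in controls 2 and 4. The endothelial markers and the summed markers of the sorted lineage itself divided the controls into the same pairs, though not every lineage marker did. Lepr had 15785, 13109.8, 9822, 13845 and 1347.5 normalized counts in cKO replicates 1 to 5, against 18730.3, 5379.9, 40594 and 935 in control replicates 1 to 4. Cxcl12 had 64954 to 93756 in cKO replicates 1 to 4 and 23905 in replicate 5, against 112676, 55047, 228864 and 18900.4 in control replicates 1 to 4. As with Tgfbr3, cKO replicate 5 was the lowest cKO library for both genes, and controls 1 and 3 were the higher controls. Pdgfra and Pdgfrb, from the same marker list, did not divide the controls in this way. Pdgfra had 11382, 14268, 13647.5 and 16115.5 in control replicates 1 to 4, and Pdgfrb had 34258, 37129, 36431.5 and 49386. cKO replicate 5 was the lowest cKO library for Pdgfra but not for Pdgfrb. The part of these markers in the level of Tgfbr3 was not tested. Without controls 1 and 3 its log2 fold change was 1.71 (limma adjusted p = 0.0746).

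Tgfbr1 (Entrez 21812), the type I receptor gene, had a like pattern of libraries but did not pass the test. It had 6749.6, 6132, 6883, 8074 and 3732 normalized counts in cKO replicates 1 to 5, and 3906, 3758, 4556 and 3239 in control replicates 1 to 4. As with Tgfbr3, the first 4 cKO libraries lay above every control and replicate 5 lay among the controls. Its log2 fold change was 0.67 with a 95% interval of 0.21 to 1.14 (SE 0.21, limma adjusted p = 0.0765). It was 0.85 without cKO replicate 5 (limma adjusted p = 0.0026) and -0.04 for replicate 5 against the controls. Over the 9 libraries the log2 levels of Tgfbr1 and Tgfbr3 had a Pearson correlation of 0.91, given as a description since the libraries share depth classes and genotype.

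Tgfbr2 (Entrez 21813), the ligand-binding type II receptor gene, had the smallest fold change of the receptor genes. It had 23901, 16180.2, 22020.5, 20657 and 19391 normalized counts in cKO replicates 1 to 5, against 19639.5, 17578, 16599 and 16482 in control replicates 1 to 4. The lowest and the highest library were both knockouts. Its log2 fold change was 0.21, with a 95% interval of -0.08 to 0.50 (limma adjusted p = 0.337). The Tgfbr3 count per Tgfbr2 count, a ratio within a library that no scaling between libraries can move, was 1.33, 1.36, 1.96 and 1.27 in cKO replicates 1 to 4 and 0.674 in replicate 5. In controls 1 to 4 it was 0.696, 0.427, 0.871 and 0.48.

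The ligand genes showed no call. Tgfb1 (Entrez 21803), the ligand made by many cell types, had 3244, 3761.5, 2717, 2840.3 and 4016 normalized counts in cKO replicates 1 to 5, against 4634, 4256, 5775 and 3841 in control replicates 1 to 4. The groups overlapped through cKO replicate 5 and control 4 only, and 4 of 5 cKO libraries were below all controls. The means were 3316 ± 565 in cKO libraries (SD, n = 5) and 4627 ± 831 in controls (SD, n = 4). The log2 fold change was -0.48 (95% interval -0.84 to -0.12), and it did not pass over all genes (limma adjusted p = 0.0931). Without cKO replicate 5 it was -0.55 and passed (limma adjusted p = 0.035).

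Tgfb2 (Entrez 21808), the isoform that depends most on betaglycan for receptor binding, had 5131, 2721, 3648.5, 5772 and 6001 normalized counts in cKO replicates 1 to 5, against 4076, 4474, 3488 and 4902 in control replicates 1 to 4. The cKO libraries spread to both sides of the controls, with 3 above and 1 below them all. The log2 fold change was 0.09 with a 95% interval of -0.44 to 0.61 (limma adjusted p = 0.844), and its sign changed with the libraries used.

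Tgfb3 (Entrez 21809) had 11252, 9327, 9645, 8850.4 and 12998 normalized counts in cKO replicates 1 to 5, and 11342, 13166, 9759 and 13631 in control replicates 1 to 4. These ranges overlapped widely. The log2 fold change was -0.20 with a 95% interval of -0.53 to 0.13 (limma adjusted p = 0.411), and the sign turned for cKO replicate 5 alone, at 0.13. For Tgfb2 and Tgfb3 the intervals leave out changes as large as those of Pmepa1 and Tgfbr3, within the spread of these libraries.

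Levels of different genes were compared as normalized counts per kb, using the exon length of protein-coding transcripts in GENCODE M21, which may not be the annotation the authors counted on. Tgfb3 was the most abundant ligand on this scale, at 3078 ± 503 per kb in cKO libraries (SD, n = 5) and 3540 ± 525 in controls (SD, n = 4). Tgfb1 followed with 1524 ± 260 in cKO libraries and 2127 ± 382 in controls, and Tgfb2 was lowest with 895 ± 273 in cKO libraries and 814 ± 116 in controls. The ranges of the 3 ligands did not overlap within either group, so this order held in both. Tgfb3 accounted for 52 to 59.4% of the summed per-length ligand level in cKO libraries and for 46.4 to 59.8% in controls.

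The receptor order by group mean was not the same in both groups. In cKO libraries betaglycan RNA led, with 4474 ± 1846 per kb for Tgfbr3, 2495 ± 355 for Tgfbr2 and 984 ± 250.4 for Tgfbr1 (SD, n = 5). In controls Tgfbr2 had 2147 ± 179 per kb, Tgfbr3 1789 ± 606 and Tgfbr1 603 ± 84.6 (SD, n = 4). The ranges of Tgfbr2 and Tgfbr3 overlapped in controls (2013 to 2399 and 1234 to 2376) and also in cKO libraries, through replicate 5 (1976 to 2919 for Tgfbr2 and 2148 to 7097 for Tgfbr3). Tgfbr3 made up 53.2 to 65.4% of the receptor sum in cKO replicates 1 to 4, 42.1% in replicate 5, and 31.1 to 46.5% in controls. The order did not hold in every library of a group. In cKO replicate 5 Tgfbr2 led with 46.5%, and in control 3 Tgfbr3 led with 46.5% against 39.6% for Tgfbr2. These shares are descriptions of the same counts and were not tested.

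**Figure D2:**
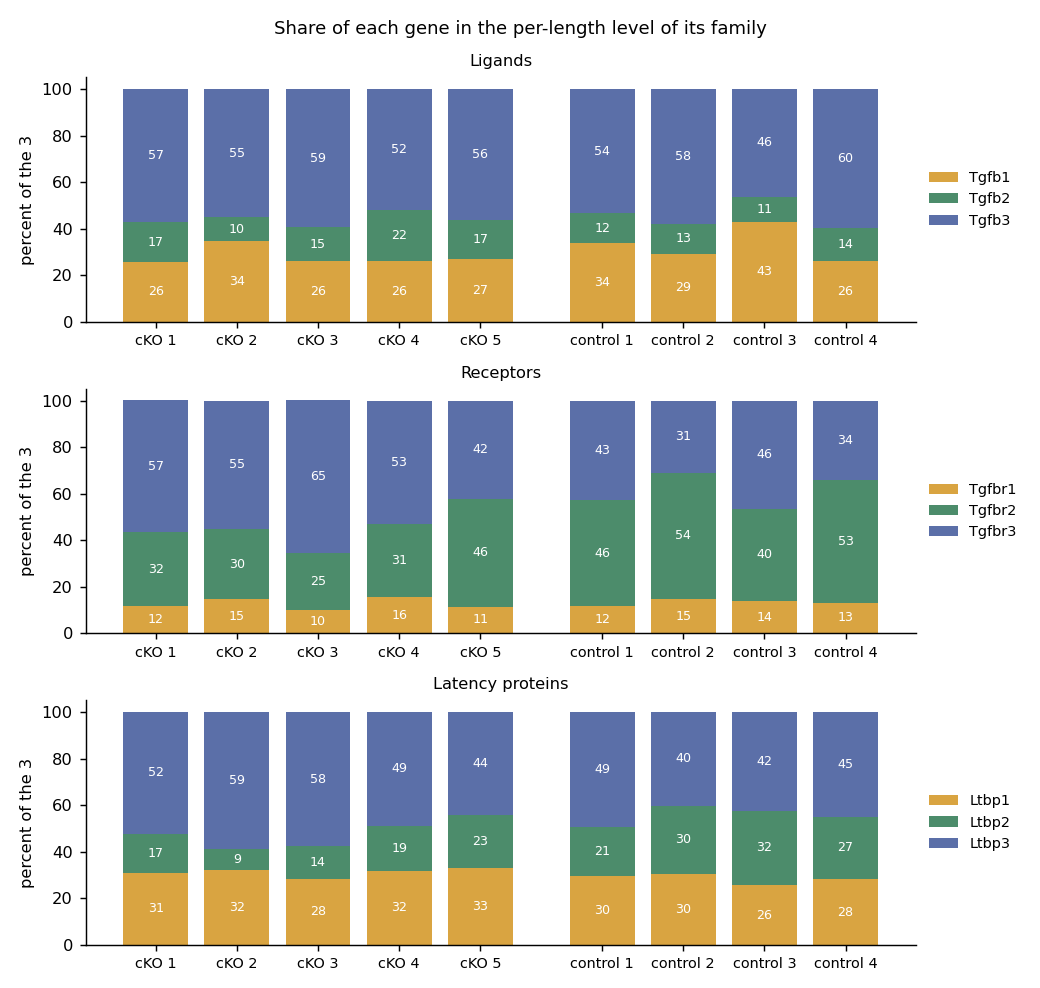
Share (percent, axis from 0) of each gene in the summed per-length level of its family in each library, with cKO libraries left and control libraries right. Tgfb3 is the largest ligand part in every library, Tgfbr3 makes up 53.2 to 65.4% of the receptor part in cKO replicates 1 to 4 against 31.1 to 46.5% in controls, and Ltbp2 takes 8.87 to 22.9% in cKO libraries against 21 to 32.2% in controls.

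None of the latency protein genes passed the test (limma over all genes; 1 of the 3, Ltbp2, had an unadjusted p under 0.05, and neither edgeR nor DESeq2 on recovered reads called any). Ltbp2 (Entrez 16997) encodes the family member that sits in elastic microfibrils and, unlike LTBP1 and LTBP3, does not bind latent TGF-beta. It had 10877, 3986, 9081, 10794 and 18314 normalized counts in cKO replicates 1 to 5, against 12484, 25357, 24758.5 and 21534 in control replicates 1 to 4. The first 4 cKO libraries were below every control, while cKO replicate 5 lay above control 1. The means were 10610.5 ± 5140 in cKO libraries (SD, n = 5) and 21034 ± 5942 in controls (SD, n = 4). The log2 fold change was -1.09, as large as that of Pmepa1, but with a larger error (SE 0.39, 95% interval -1.95 to -0.23, limma adjusted p = 0.106). Without cKO replicate 5 it was -1.33 (limma adjusted p = 0.028), and for replicate 5 against the controls it was -0.15.

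Ltbp1 (Entrez 268977), which ties latent TGF-beta to the matrix, had 20642, 14691, 18771, 18250.0 and 26778 normalized counts in cKO replicates 1 to 5, against 18048, 26574, 19953 and 22897 in control replicates 1 to 4. Its log2 fold change was -0.15 (95% interval -0.56 to 0.25, limma adjusted p = 0.618), with cKO replicate 5 above every control and replicate 2 below every control. Ltbp3 (Entrez 16998), a latency protein known for its part in skeletal growth, had 26190.3, 20367, 28739, 21048 and 27108 in cKO replicates 1 to 5, against 22535, 26541, 24897 and 27456 in control replicates 1 to 4. Its log2 fold change was -0.05 (95% interval -0.36 to 0.26, limma adjusted p = 0.851), and the ranges overlapped. On the per-length scale Ltbp3 had 4757 ± 724 normalized counts per kb in cKO libraries (SD, n = 5) and 4886 ± 416 in controls (SD, n = 4). In controls its range lay above those of the other 9 genes. In cKO libraries its range overlapped that of Tgfbr3, which was the higher of the pair in 3 of 5 libraries and in the mean of replicates 1 to 4 (5056 per kb for Tgfbr3 and 4641 for Ltbp3). The Ltbp2 count per Ltbp1 count within a library was 0.271 to 0.684 in cKO libraries and 0.692 to 1.24 in controls.

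**Figure D3:**
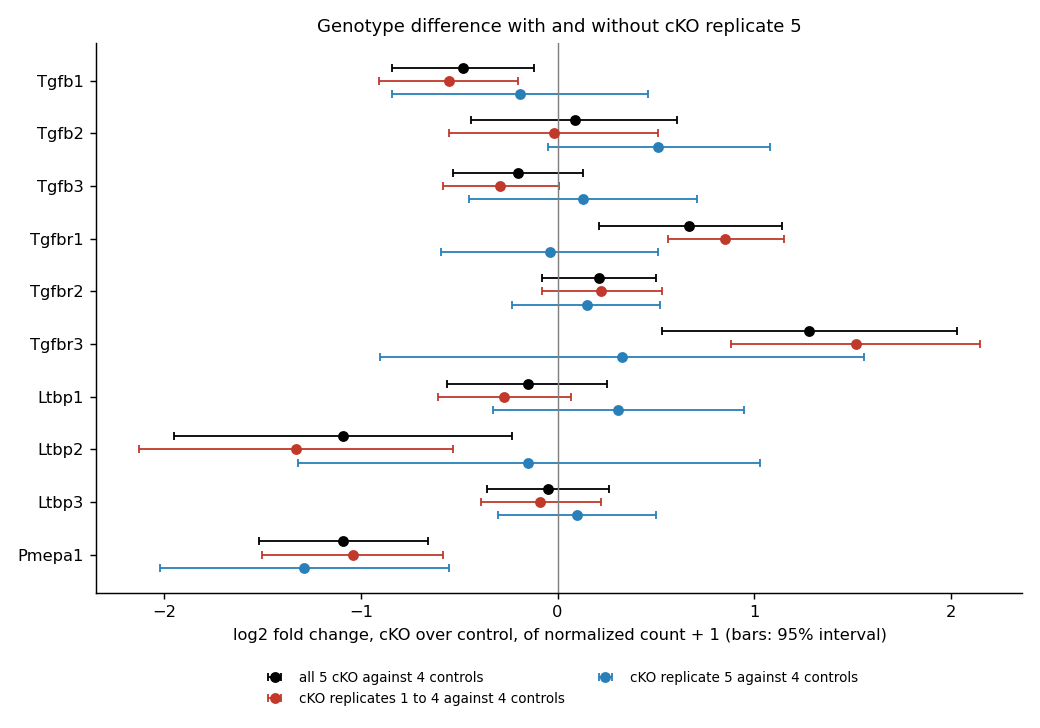
Log2 fold change of normalized count + 1, cKO over control, for the 10 genes, with 95% intervals from limma before adjustment: all 5 cKO libraries (black), cKO replicates 1 to 4 (red) and cKO replicate 5 alone (blue), each against the same 4 controls. Pmepa1 lies between -1.29 and -1.04 in all 3, while Tgfbr1 and Ltbp2 lie at 0.85 and -1.33 for replicates 1 to 4 and at -0.04 and -0.15 for replicate 5.

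The count of calls depended on cKO replicate 5. With replicates 1 to 4 against the controls, 5 of the 10 genes passed (limma), as did 22.5% of all genes tested: Tgfbr1 and Tgfbr3 as higher, and Tgfb1, Ltbp2 and Pmepa1 as lower. With replicate 5 against the controls, a comparison that rests on 1 cKO library, none of the 10 passed, beside 0.524% of all genes tested. The authors' deposited table called 3 of the 10 genes and 17.1% of the genes with an adjusted p there. Those were Pmepa1 (adjusted p = 4.2e-05), Tgfbr3 (0.00263) and Tgfbr1 (0.0183); Tgfb1 and Ltbp2 had 0.0548 and 0.0592 in the authors' deposited table. On recovered reads edgeR's quasi-likelihood test called Pmepa1 alone, 1 of 10 where it called 4.96% of all genes tested, with an adjusted p of 0.0603 for Tgfbr3. DESeq2 on recovered reads called the same 3 genes as the authors' table, where it called 16.5% of all genes with an adjusted p.

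Other genes of the pathway were counted in 6 lists, which hold 91 genes, 5 of them in 2 lists. Of the 89 that were tested, 4 were higher and 6 lower in the cKO libraries, 10 in all or 11.2%, beside the 7.48% of all genes tested that passed the same limma test. Among 22 tested genes of latency and activation, 4 were lower and none higher (median log2 fold change -0.43). Furin, the protease that cleaves the TGF-beta propeptide, had 8239, 5752, 8671, 5708 and 8701 normalized counts in cKO replicates 1 to 5, against 14301, 14766, 15662 and 14553 in control replicates 1 to 4. All cKO libraries were well below all controls, and Furin fell 2.04-fold (log2 fold change -1.03, SE 0.16, limma adjusted p = 0.0068). Thbs1, which encodes thrombospondin 1, an activator of latent TGF-beta, had 34210 ± 10587 in cKO libraries (SD, n = 5) and 102404 ± 23687 in controls (SD, n = 4), 3.04-fold lower (limma adjusted p = 0.0083). Like Pmepa1, Furin and Thbs1 kept their calls whichever single library was left out (limma adjusted p of at most 0.0234 and 0.0312). Without controls 1 and 3 together the log2 fold changes were -1.01 for Furin and -1.82 for Thbs1 (limma adjusted p = 0.0608 and 0.0289, with fewer libraries).

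The other called genes of this list were less steady. Lrrc32 encodes GARP, which holds latent TGF-beta at the cell surface, and had 2592, 1847.5, 2566, 2579.5 and 7814 normalized counts in cKO replicates 1 to 5, against 7903 to 9452 in controls. Emilin1 encodes a matrix protein that restrains TGF-beta processing and had 10774, 14595, 13237, 9457 and 31386 in cKO replicates 1 to 5, against 31449.5 to 59591 in controls. In both genes cKO replicate 5 stood just under the lowest control and far above the other knockouts. They fell 2.93-fold and 2.87-fold (limma adjusted p = 0.0294 and 0.0293), and the calls were lost without any 1 library other than cKO replicate 5 (limma adjusted p of 0.0566 to 0.0768 for Lrrc32 and 0.0504 to 0.0826 for Emilin1).

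**Figure D4:**
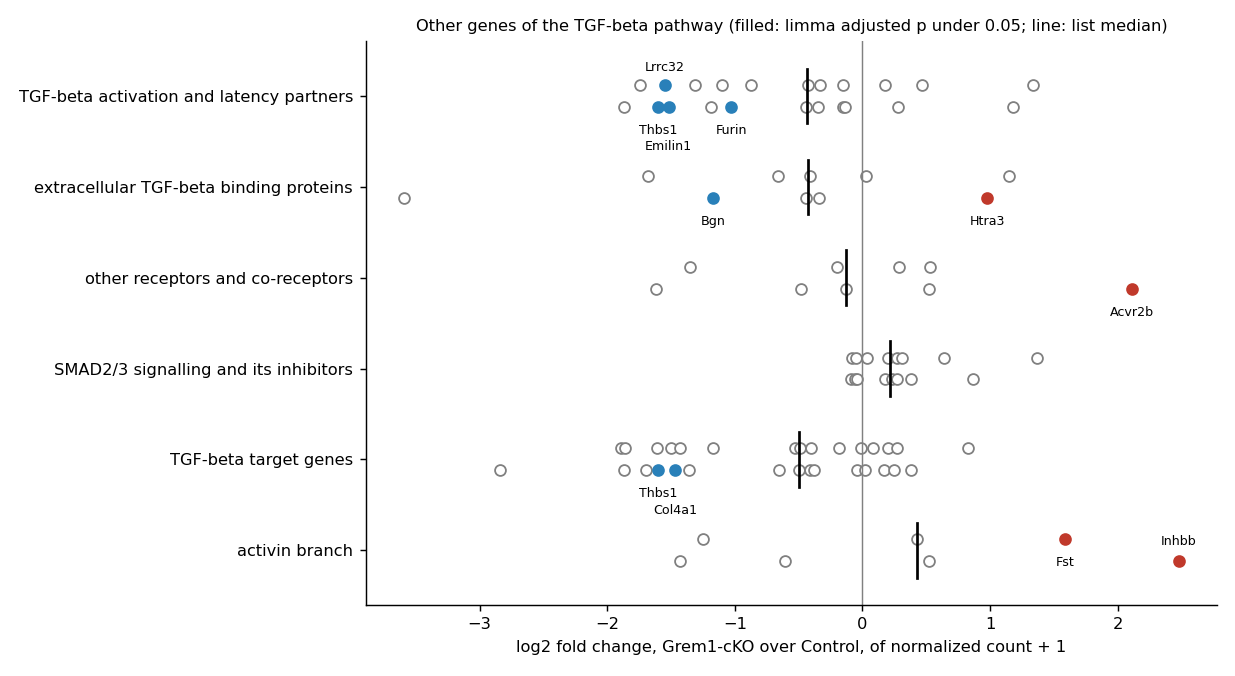
Log2 fold change of normalized count + 1, Grem1-cKO over Control, of each tested gene in the 6 pathway lists (points, staggered within a row), with the list median as a black line. Filled points passed the limma test over all genes and are named, red for higher and blue for lower; the calls of the latency and activation list and of the target list are all lower, and those of the activin branch are both higher.

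Of 10 extracellular TGF-beta binding proteins 1 was higher and 1 lower (median -0.42). Htra3, a secreted serine protease, had 67583 ± 14905 in cKO libraries (SD, n = 5) and 33736 ± 4491 in controls (SD, n = 4), 1.97-fold higher with no overlap between groups (limma adjusted p = 0.0198; 0.0388 to 0.059 with 1 library other than cKO replicate 5 left out). Bgn, a small matrix proteoglycan, fell 2.25-fold (limma adjusted p = 0.0382). It had 55243 to 60069 in cKO replicates 1 to 4, 137097 in replicate 5 and 127429.5 to 183390.2 in controls, and its call was lost without any 1 library other than cKO replicate 5 (limma adjusted p of 0.0626 to 0.0978). Of 9 tested other receptors and co-receptors (median -0.13), 1 was higher: Acvr2b, an activin type II receptor gene, had 451 ± 190.4 in cKO libraries (SD, n = 5) and 101 ± 38.2 in controls (SD, n = 4), 4.33-fold higher (limma adjusted p = 0.0309, and 0.0539 to 0.0806 with 1 library other than cKO replicate 5 left out).

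No gene of SMAD2/3 signalling and its inhibitors passed limma (0 of 16, 3 with an unadjusted p under 0.05; edgeR called 0 and DESeq2 called 3; median log2 fold change 0.21). The smallest p values belonged to Ppm1a, a phosphatase of SMAD2 and SMAD3, with a log2 fold change of 0.64 and no overlap between groups (limma adjusted p = 0.0731), and to Nedd4l, a ubiquitin ligase of activated SMADs, with 1.37 (limma adjusted p = 0.0754). In the activin branch, whose ligands use the same SMADs, 2 of 7 were higher and none lower (median 0.43). The sign of this median was not steady. Without cKO replicate 5 it was -0.02, with 2 higher and 1 lower (limma), and without controls 1 and 3 together it was -0.56. Fst, the activin-binding follistatin, had 4239 ± 1173 in cKO libraries (SD, n = 5) and 1478 ± 683 in controls (SD, n = 4), 3.01-fold higher without overlap (limma adjusted p = 0.0187, and up to 0.0565 with 1 library left out). Inhbb, which encodes an activin subunit, was 5.58-fold higher (limma adjusted p = 0.0493). It had 2642 to 5153 in cKO replicates 1 to 4, 415 in replicate 5 and 243 to 694.5 in controls, and its call was lost without any 1 library other than cKO replicate 5.

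The TGF-beta target list had a median log2 fold change of -0.50, and 2 of its 30 genes passed, a share near the 7.48% of all genes tested, both as lower: Thbs1, given above, and Col4a1, a basement membrane collagen gene. Col4a1 had 62105, 35589, 53689.5, 54329 and 78245 normalized counts in cKO replicates 1 to 5, against 194249.9, 87664, 219304 and 145907 in control replicates 1 to 4. It fell 2.78-fold with no overlap (limma adjusted p = 0.0219, and up to 0.0643 with 1 library left out), and the controls with the most Col4a1 were those with the most endothelial marker RNA. Without that pair its log2 fold change was -1.04 (limma adjusted p = 0.153). Among the other direct targets, 4 were singled out after their values were seen and do not stand for the list. Ccn2, the connective tissue growth factor gene, had a log2 fold change of -0.01 (limma adjusted p = 0.984). The inhibitory SMAD gene Smad7 had 0.38 (limma adjusted p = 0.409), and the SMAD corepressor gene Skil had 0.20 (limma adjusted p = 0.49). For Tgfbi it was -0.18 (limma adjusted p = 0.708).

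Without cKO replicate 5, 10 genes of the latency and activation list were lower and 1 higher, and 11 target genes were lower and none higher (limma). In that comparison 10.1% of all genes tested were lower and 12.4% higher. For cKO replicate 5 against the controls, a comparison that rests on 1 cKO library and in which few genes of any kind passed, the log2 differences were -0.77 for Furin, with a 95% interval of -1.04 to -0.49 before adjustment, and -1.0 for Thbs1 (-1.98 to -0.01). They were 1.05 for Fst (-0.60 to 2.70) and -0.97 for Col4a1 (-2.46 to 0.53), against -0.17 for Lrrc32 (-0.53 to 0.18), -0.18 for Bgn (-0.93 to 0.56) and 0.01 for Inhbb (-1.70 to 1.72). None of these passed (limma adjusted p of 0.101 to 1). In that library the medians of the latency and activation list and of the target list were 0.01 and 0.06.

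Genes whose log2 levels followed those of the ligands and of Pmepa1 most closely over the 9 libraries were searched among 13281 genes with a mean normalized count of at least 50. For Tgfb1 these were Dpagt1, Pgm2 and Ppp1r37 (Pearson r of 0.974, 0.973 and 0.970). Tgfb2 was nearest to Nudt9, Dennd10 and Eif5a2 (0.962, 0.955 and 0.953), and Tgfb3 to Pkd2, Aars and Cnot1 (0.956, 0.954 and 0.946). Pmepa1 was nearest to Fgd3, Usp7 and Ext2 (0.953, 0.952 and 0.942). With 9 libraries that share genotype and depth classes and so many genes to choose from, these values are descriptions of likeness alone.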

How the data were processed

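The 10 genes and all gene lists were chosen with earlier results of these data known. Polyadenylated RNA was sequenced, per the labels' protocols. The submitters' processing notes name STAR, featureCounts, DESeq2 and mm39, without versions; the sources used here do not give the annotation, the strand setting or any filter. The deposited matrix holds normalized counts, used as a signal per gene and library. The authors' deposited table of their comparison holds, per the file headers, p-values before and after adjustment, a log2 fold change and its error, the score of the test, and a mean count (signal) over all libraries.

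Symbols for 25275 of 27179 Entrez IDs came from the RefSeq table of GRCm38.p6, another build than that of the files, so the only positions given are those of the printed promoters, in GRCm38.p6. Dividing each library by its smallest value above 0 gave whole numbers (within 0.01 of a read) for all but 3 values, at least 99.9938% per library; these recovered reads gave the depth and the input of the count tests.

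The test was limma 3.58.1 (R 4.3.3; two-sided, trended eBayes) of genotype alone on log2(normalized count + 1), over genes reaching 10 normalized counts in 4 or more libraries, with Benjamini-Hochberg adjustment across them. Fold changes are on that scale, which understates those of low genes, and the 95% intervals are limma's, unadjusted. The code was tested on simulated data. Alternatives were pseudocounts of 0.5 and 5, other filters, TMM scaling, edgeR 4.0.16, DESeq2 1.42.0, a block for replicate number and fits without given libraries. The text names all 10 genes and Grem1. From each pathway list it names at most 4 called genes per direction, ranked by p, or the 2 with the smallest p where no gene was called. It also names the 3 nearest genes of Tgfb1, Tgfb2, Tgfb3 and Pmepa1. Ccn2, Smad7, Skil and Tgfbi were added after their values were seen. Some other results are not reported here.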

Additional observations from a re-analysis of the deposited data

Results flagged for a closer look

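In 46 groups of libraries (23 genes in each genotype), 3 values stood far from the rest of their group by Dixon's test at 95%, where chance gives about 5% of groups. All 3 were high values of cKO replicate 5, in genes with lower calls in the knockout. Bgn had 137097 normalized counts there, against 55243 to 60069 in the other 4 cKO libraries. Lrrc32 had 7814, against 1847.5 to 2592, and Emilin1 had 31386, against 9457 to 14595. None of the 10 TGF-beta genes was set apart in this way.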

How the results depend on the processing

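Pmepa1 stayed lower and past the threshold in every alternative except the comparison of cKO replicate 5 alone with the controls (-1.29, limma adjusted p = 0.266). The count of the 10 genes called, 2 with the settings of the report, was 1 with a pseudocount of 0.5, no filter, TMM scaling, edgeR or without controls 1 and 3 together. It was 3 with DESeq2 and with the replicate block, 1 to 5 with 1 library left out, and 0 for cKO replicate 5 alone. Of all genes tested, 1184 passed in the report; edgeR called 786, DESeq2 2546, the replicate block 2715, the fit without controls 1 and 3 together 338, cKO replicate 5 alone 83, and 377 to 3562 passed with 1 library left out. Of the pathway genes, 10 in the report, DESeq2 called 25, the replicate block 29, the fit without controls 1 and 3 together 2, and cKO replicate 5 alone 0, with 2 to 31 when 1 library was left out. The replicate block gives cKO replicate 5 a number of its own and so drops it from the comparison. Deviations of same-numbered libraries correlated by only -0.011 to 0.07, and the libraries were not treated as pairs. Such correlations cannot show whether same-numbered libraries were matched, and the labels do not say.

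Signs turned as follows. Tgfb2 was at -0.02 with the replicate block, at -0.070 without controls 1 and 3 together, and at -0.021, -0.0072 and -0.0036 without cKO replicate 5, cKO replicate 4 and control 3; with 1 library left out it ran from -0.021 to 0.264. Ltbp3 was at 0.018 and 0.0059 without cKO replicates 2 and 4, in a range of -0.106 to 0.018 with 1 library left out. For cKO replicate 5 alone Tgfb3 was at 0.13, Tgfbr1 at -0.04, Ltbp1 at 0.31, Ltbp3 at 0.10 and Nedd4l at -0.18. The cause was not tested. The 10 genes had 12165 to 185617 recovered reads per group, so counting error is small beside the spread between libraries; these intervals of the spread limit the comparison. Depth and cKO replicate 5 cannot be told apart.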
